A study of Mus musculus with 4 samples.

Results

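Podosomes are dot-like adhesions of macrophages and osteoclasts, built around a core of branched actin filaments and held to the matrix by a ring of integrin-linked proteins. In osteoclasts they are reorganised into the sealing zone that encloses the bone being resorbed, and this reorganisation depends on Src family signalling, small GTPases, the Arp2/3 complex and unconventional myosins. A set of 39 genes that encode these podosome and actin regulators was followed here, out of 23920 genes in the expression table. They were chosen by symbol for what their products are known to do, although earlier results of these data were known at the time. They were arranged in 9 groups by role. All 39 were found, and all 39 reached 1 FPKM in at least 1 library. FPKM counts fragments scaled to transcript length and library size, so that levels can be set side by side between genes per unit of length. *Fscn1* reached it only with the 1.07 FPKM of a single library. In all, 10764 genes passed the same minimum and formed the background.

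The libraries were made from total RNA of macrophage-like cells grown from bone marrow (BMMs) of male C57BL/6 mice whose age is labelled as 8 weeks, while the methods name a younger age for the osteoclast cultures. Every culture received M-CSF at 30 ng/mL. For *Stat5* fl/fl BMMs, in which *Stat5a* and *Stat5b* are floxed but intact, this was the only cytokine of the M-CSF library, RANKL at 100 ng/mL was given for the RANKL library, and RANKL together with IL-3 at 1 ng/mL for the IL-3 library. The cKO library came from *Stat5* cKO BMMs of littermates that also carried Mx1-Cre, a recombinase driven by a promoter that type I interferon induces, and these received both RANKL and IL-3 at those doses. Mice of both genotypes had received poly I:C, which the controls therefore share with the cKO, and all cultures were labelled 24 h. M-CSF keeps the cells alive as macrophages, RANKL drives them towards osteoclasts, and IL-3 was the inhibitor under study. With 1 library per condition no difference could be set against the spread between cultures, so that no test was made and every difference below compares single libraries.

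The depth estimated from low values was 33.1 M to 36.8 M fragments per library. The deleted genes matched the labels, as *Stat5a* stood at 9.89, 10.8 and 12.0 FPKM in the fl/fl libraries and at 0.168 FPKM in the cKO library, and *Stat5b* at 7.80 to 10.8 against 0.191 FPKM. The osteoclast course was represented by *Acp5*, tartrate-resistant acid phosphatase, at 12.2 FPKM in the M-CSF library, 432 in the RANKL library, 28.2 in the IL-3 library and 149 in the cKO library. The cell type field reads osteoclast for all 4 libraries, although the title of the M-CSF library calls its cells precursors. Of the osteoclast markers, *Calcr* was listed at 0 throughout and *Oscar* did not exceed 0.698 FPKM.

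The question put to the members was how the genes for the adhesion and actin machinery stood when BMMs were exposed to RANKL, when IL-3 was added, and when the cells that received IL-3 lacked STAT5. Most members varied little, and so did most genes. Over the 4 libraries 21 of the 39 (53.8%) kept within a 1.5-fold range on the log2(FPKM + 1) scale, against 60.4% of all genes tested. In each of the 3 comparisons 23 members were less than 1.5-fold apart, a count for which the share of all genes was not taken. The 16 others included *Src*, *Myo10*, *Cttn*, *Zyx*, *Actg1* and *Fblim1*, and the plot of members by library shows these as the rows whose points lie far apart.

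**Figure D1:**
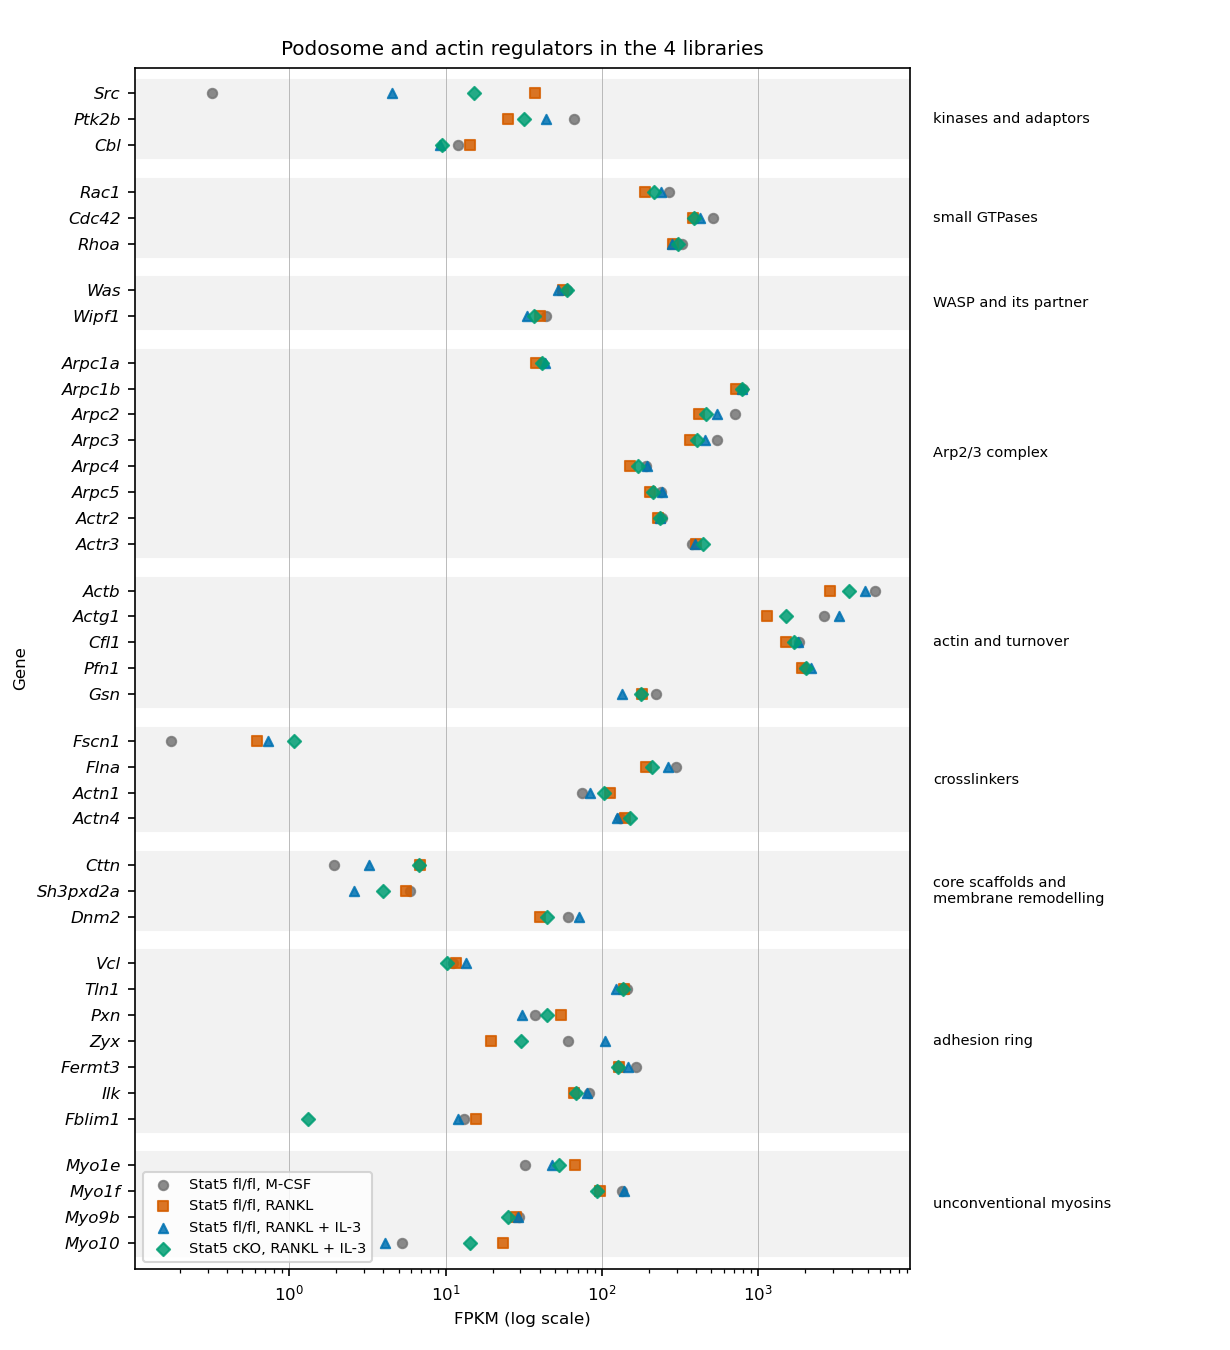
Level of each of the 39 genes in FPKM (horizontal log axis), ordered by role, with 1 point for each of the 4 libraries and no error bars because there was 1 library per condition. Most rows are tight, whereas *Src* spans 0.319 to 37.1 FPKM and *Fblim1* has its cKO point at 1.31 FPKM, apart from the fl/fl points at 12.0 to 15.6 FPKM.

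Summed over the 39 genes the level was 17924, 12319, 17464 and 14147 FPKM in the M-CSF, RANKL, IL-3 and cKO libraries, which made up 3.42%, 2.43%, 3.21% and 2.68% of the summed FPKM of those libraries. Most of that course belonged to the genes of the cytoplasmic actins, *Actb* and *Actg1*, which alone took 1.57%, 0.792%, 1.49% and 1.00%. The other 37 members together took between 1.63% and 1.86% in every library.

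**Figure D2:**
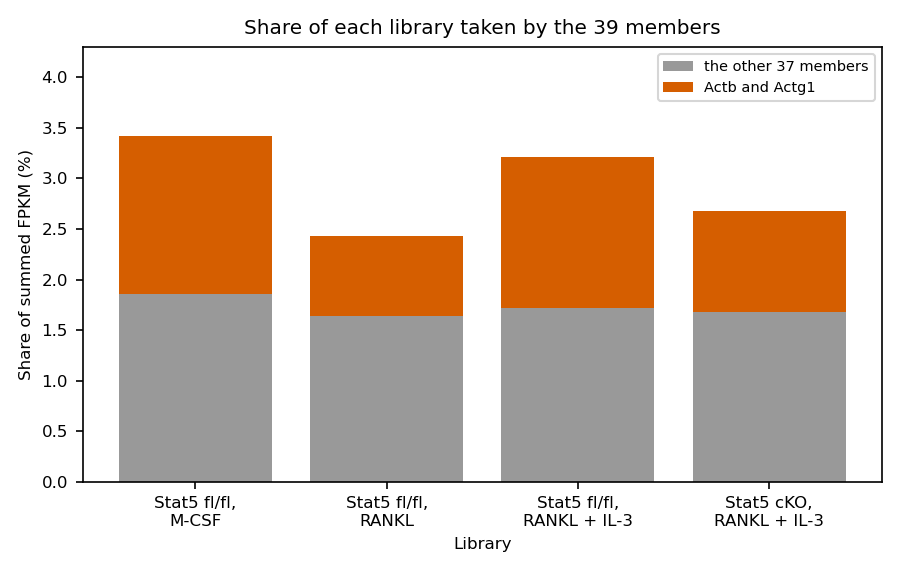
Share of the summed FPKM of each library (vertical axis, %) taken by *Actb* and *Actg1* (upper part of each bar) and by the other 37 members (lower part). The lower part stays between 1.63% and 1.86%, while the actin part ranges from 0.792% with RANKL to 1.57% with M-CSF.

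With RANKL, 4 members stood at least 2-fold above the M-CSF library (*Src*, *Myo10*, *Cttn* and *Myo1e*) and 3 at least 2-fold below it (*Zyx*, *Ptk2b* and *Actg1*), where 5.43% and 6.87% of all genes tested did so. At 1.5-fold, 5 were higher and 6 lower, where the background was 15.6% and 13.9%. The median member differed by -0.13 on the log2(FPKM + 1) scale and the median gene by 0.14. Where libraries were scaled so that the median gene did not differ, the split was 3 higher and 4 lower at 2-fold, beside 4.02% and 8.77% of all genes, and 4 higher and 10 lower at 1.5-fold, beside 10.5% and 17.2%. With libraries scaled to a common upper quartile it was 3 and 4 at 2-fold, beside 4.77% and 7.60%, and 4 and 8 at 1.5-fold, beside 12.9% and 15.4%.

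When IL-3 was added to RANKL, 2 members were at least 2-fold higher (*Zyx* and *Actg1*) and 2 at least 2-fold lower (*Src* and *Myo10*), against a background of 6.11% and 3.47%. At 1.5-fold 5 were higher and 6 lower, with 12.1% and 12.7% of all genes. The median was 0.12 for the members and -0.15 for all genes, and after scaling to the median gene the 1.5-fold split was 7 higher and 5 lower, beside 15.4% and 7.14% of all genes. This comparison shares its RANKL library with the previous one, so that opposite signs in the pair are partly built in.

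In the cKO library, compared with the IL-3 library of fl/fl cells, 2 members were at least 2-fold higher (*Myo10* and *Src*) and 3 at least 2-fold lower (*Fblim1*, *Zyx* and *Actg1*), where 2.12% and 4.28% of all genes were. At 1.5-fold the counts were 3 higher and 4 lower, beside 8.44% and 8.89%. The medians were -0.08 and 0.13. The IL-3 library is also part of the previous comparison, so that opposite signs in this pair are partly built in as well. As shares of the 39 members, the 2-fold counts of the 3 comparisons came to between 5.13% and 10.3%, so that in number the members differed from the background by a few genes only, and the counts are given as a description.

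**Figure D3:**
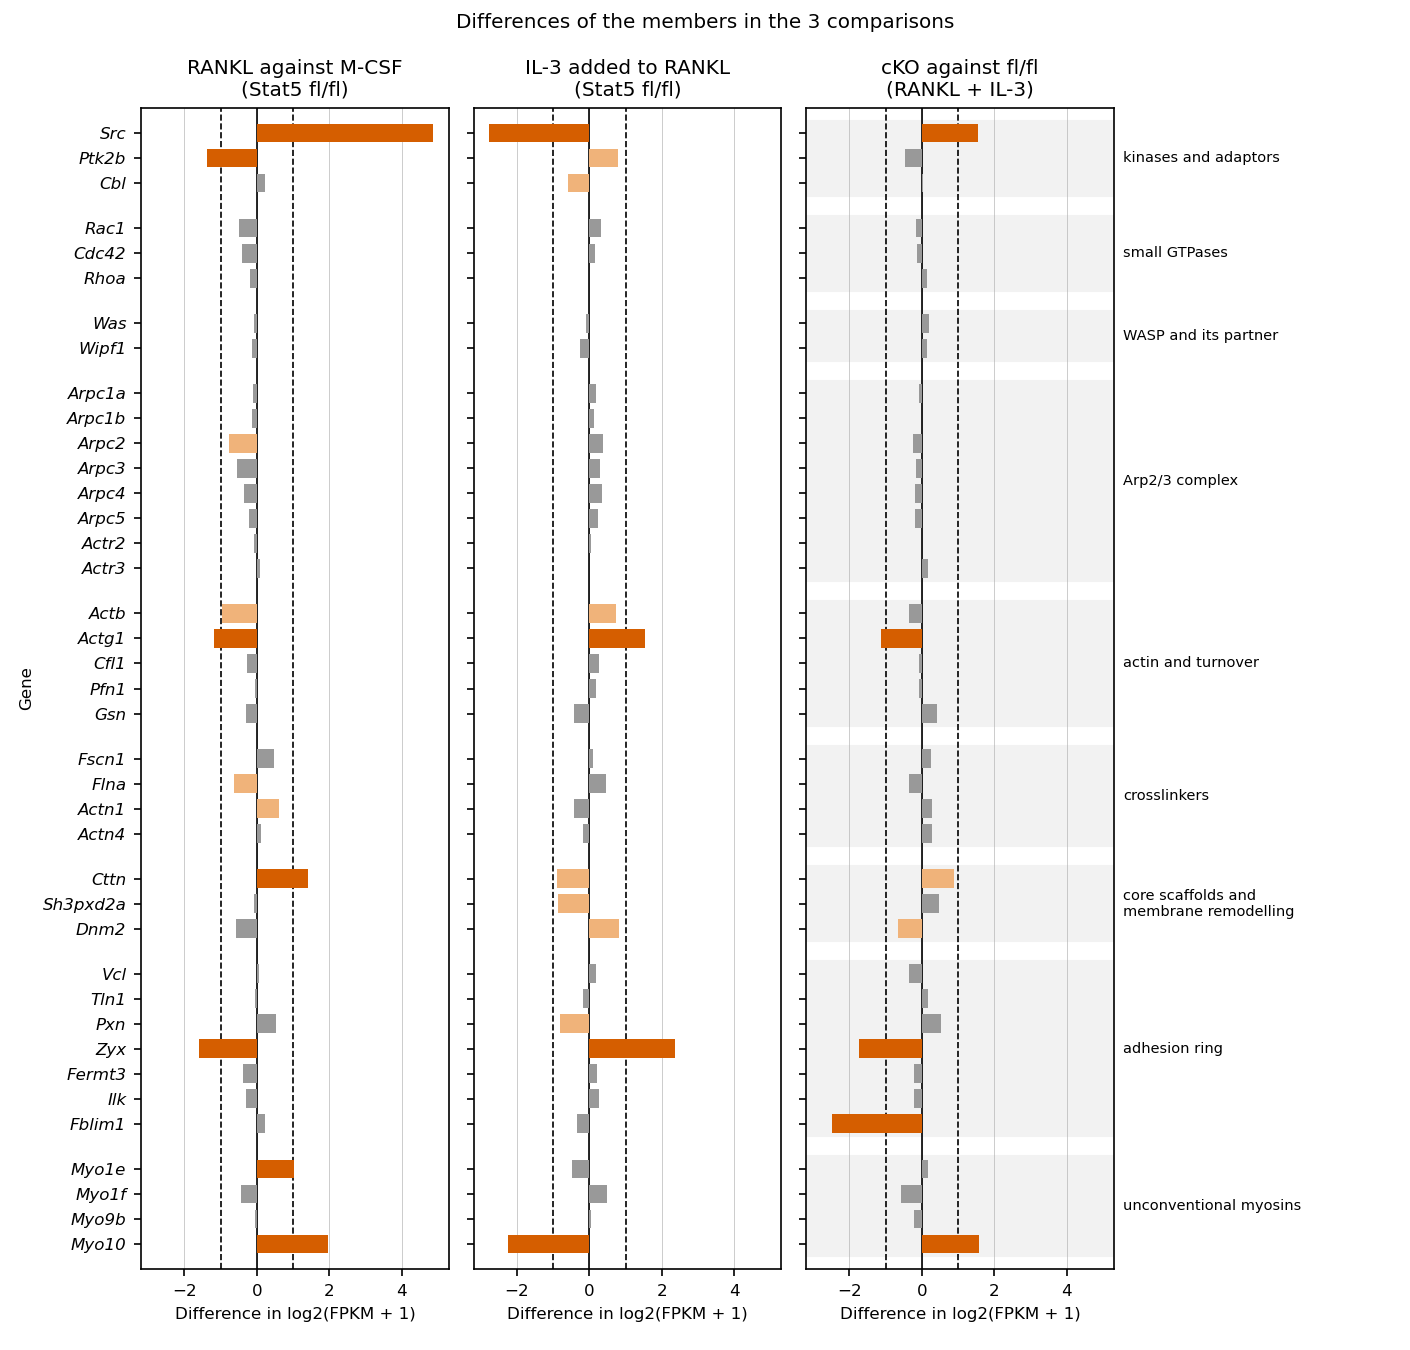
Difference of each member in log2(FPKM + 1) (horizontal axis) in the 3 comparisons, ordered by role. Dashed lines mark 2-fold, dark bars are at least 2-fold and light bars at least 1.5-fold apart. *Src* reaches 4.85 with RANKL, *Zyx* and *Actg1* point opposite to *Src* and *Myo10* in each panel, and *Fblim1* has its longest bar in the cKO panel.

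Among the kinases and adaptors, *Src*, the tyrosine kinase without which osteoclasts form but do not resorb bone, had the largest range of all members. Its level was 0.319 FPKM in the M-CSF library (41 estimated fragments, 95% Poisson interval 0.229 to 0.433), 37.1 with RANKL, 4.55 in the IL-3 library and 15.2 in the cKO library. The RANKL library was thus 116 times the M-CSF library, IL-3 went with an 8.15-fold lower level, and the cKO library was 3.35-fold above its fl/fl counterpart without reaching the level of RANKL alone. Intervals of this kind cover counting error only, and the gene lies on chromosome 2 from 157418444 to 157471862 (plus strand, GRCm38). *Ptk2b*, which encodes the focal adhesion kinase relative Pyk2, took the other direction. It stood at 66.4, 25.03, 43.8 and 31.6 FPKM in the M-CSF, RANKL, IL-3 and cKO libraries, the order used for values from here on. Its relative *Ptk2* ranged only from 10.04 to 13.3 FPKM. *Cbl*, a ubiquitin ligase and adaptor that Src phosphorylates, was at 12.1, 14.4, 9.19 and 9.47 FPKM and passed 1.5-fold only in the IL-3 comparison, where it was 1.57-fold lower.

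The small GTPases and the WASP pair, which switch on branched actin assembly, kept close levels. *Cdc42* stood between 381 and 510 FPKM, *Rac1* between 189 and 269, and *Rhoa* between 281 and 325. *Was*, which encodes the haematopoietic activator of the Arp2/3 complex, was at 52.7 to 60.0 FPKM, and *Wipf1*, whose product stabilises it, at 33.0 to 43.7. None of these 5 genes was 1.5-fold apart in any comparison. The paralogs *Rac2* (62.2 to 78.2 FPKM) and *Wasl* (4.50 to 6.45 FPKM) were also within 1.5-fold in each comparison, whereas *Rhob*, a relative of *Rhoa*, stood at 111, 30.1, 154 and 41.2 FPKM.

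The Arp2/3 complex nucleates the branches of the podosome core. Of its 8 genes followed here only *Arpc2* passed 1.5-fold, in the first comparison, with 713, 418, 548 and 465 FPKM, and was highest in the M-CSF library. *Arpc3* lay just inside that limit (542 against 367 FPKM, a log2 difference of -0.56). *Actr2*, which encodes Arp2, had the smallest range of all members, from 229 to 244 FPKM, and *Actr3*, which encodes Arp3, ranged from 374 to 443 FPKM. *Arpc4* (151 to 194 FPKM) and *Arpc5* (203 to 242 FPKM) also kept within 1.5-fold. Of the alternative subunits, *Arpc1b* was measured at 725 to 798 FPKM and *Arpc1a* at 37.8 to 43.3, so that the ratio of the pair was 19.4, 19.2, 18.2 and 19.2 in the 4 libraries. *Arpc5l* (24.8 to 33.4 FPKM) was far below *Arpc5*, and *Actr3b* did not exceed 0.224 FPKM.

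The actin genes themselves varied more than the complex that branches the filaments. *Actg1*, which encodes cytoplasmic gamma actin, was at 2622, 1144, 3286 and 1504 FPKM. It was therefore low in the RANKL and cKO libraries and high in the other pair, with ratios of 2.29-fold lower, 2.87-fold higher and 2.18-fold lower in the 3 comparisons. *Actb*, which encodes beta actin, was at 5576, 2876, 4827 and 3787 FPKM and did not reach 2-fold in any comparison on the log2(FPKM + 1) scale, although it did with RANKL once libraries were scaled to the median gene or to a common upper quartile. The ratio of *Actb* to *Actg1* was 2.13 with M-CSF, 2.51 with RANKL, 1.47 with IL-3 added and 2.52 in the cKO library. The coding sequences of this pair are nearly identical and both have many pseudogenes, so that the division of fragments between them is uncertain.

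Among the turnover genes, *Pfn1*, which encodes the monomer-binding profilin, was at 1909 to 2161 FPKM, and *Cfl1*, which encodes the severing protein cofilin, at 1504 to 1825 FPKM. Neither followed the course of *Actg1* in size. *Gsn*, which encodes the capping and severing protein gelsolin, was at 221, 180, 134 and 178 FPKM and stayed within 1.5-fold in each comparison. *Gsn* was lowest where IL-3 was given to fl/fl cells, the library in which *Actg1* was highest.

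Because *Actg1* and *Zyx* were high and low in the same libraries, the promoter letters of the members were read for 3 motifs, over 250 bases before to 50 after each RefSeq start site (GRCm38.p6), on both strands. RefSeq promoters were at hand for 33 of the 39 members, 41 promoters in all, and not for *Pxn*, *Actb*, *Ptk2b*, *Cttn*, *Rac1* and *Sh3pxd2a*. The CArG box, the motif bound by serum response factor, which is known for its muscle and cytoskeletal targets, was present in 1.63% of all 32851 promoters and in those of 4 members, *Actg1*, *Arpc4*, *Myo1e* and *Vcl*. TGACTCA, the motif of the Fos and Jun dimer AP-1, was present in 5.20% of all promoters and in those of 2 members, *Fblim1* and *Zyx*, where the opposite strand carries it. TTCNNNGAA, the motif of STAT dimers, was present in 8.30% of all promoters and in 0 of the member promoters. The windows that follow are shown 5′ to 3′ on the strand of the gene, with the motif in capitals, so that members with like and unlike courses can be read beside each other.
*Actg1*, CArG box, chr11:120348566-120348595, minus strand: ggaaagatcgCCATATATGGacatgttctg
*Arpc4*, CArG box, chr6:113377863-113377882, plus strand: CCTAATTTGGtgcccaacct
*Myo1e*, CArG box, chr9:70207308-70207337, plus strand: gctgaattctCCATTTATGGacagattgcc
*Vcl*, CArG box, chr14:20929161-20929190, plus strand: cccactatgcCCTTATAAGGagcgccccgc
*Zyx*, AP-1 motif, chr6:42349697-42349723, plus strand: gtgcggacagTGAGTCAgttctccagc
*Fblim1*, AP-1 motif, chr4:141606116-141606142, minus strand: ataccctctgTGAGTCAgacattccgt
The box of *Actg1* begins 90 bases before the start site and that of *Myo1e* 32 bases before it, whereas the box of *Vcl* begins 227 bases before it and that of *Arpc4* 250 bases before it, at the edge of the stretch read. The AP-1 motif begins 121 bases before the RefSeq start site of *Zyx* and 80 bases before that of *Fblim1*. The *Zyx* window nevertheless lies inside the GENCODE span of the gene, which begins upstream of it at 42349630. *Arpc4*, at 192, 151, 194 and 170 FPKM, had its libraries in the same order as *Actg1* but within 1.5-fold of each other. *Myo1e* and *Vcl* did not share the course of *Actg1*, and *Fblim1* did not share that of *Zyx*, so that some members with the same motif differed in their order of libraries. A match is a description of the sequence, and binding was not measured.

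Of the crosslinkers, *Flna*, whose product filamin A joins filaments into networks and binds integrin tails, was at 299, 191, 264 and 207 FPKM and was 1.56-fold lower with RANKL. *Actn1*, the gene of alpha-actinin 1, which bundles filaments in the podosome cap and ring, went the other way. It stood at 74.4, 113, 84.4 and 103 FPKM, highest in the RANKL library. *Actn4* ranged from 125 to 152 FPKM and did not pass 1.5-fold. *Fscn1*, which encodes the bundling protein fascin, was the least abundant member, at 0.174, 0.624, 0.726 and 1.07 FPKM from 15, 59, 71 and 105 estimated fragments. On the log2(FPKM + 1) scale it stayed within 1.5-fold in each comparison, which at levels around 1 FPKM says little about its ratio, and the M-CSF interval of 0.0981 to 0.285 FPKM lay below that of RANKL, 0.475 to 0.805.

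The scaffolds of the podosome core were of low or middling abundance. *Cttn*, which encodes the Src substrate cortactin, stood at 1.93, 6.84, 3.21 and 6.71 FPKM. The RANKL and cKO libraries did not differ beyond counting error in it and the M-CSF library was lowest, and its FPKM ratios were 3.54-fold higher, 2.13-fold lower and 2.09-fold higher in the 3 comparisons. The added 1 FPKM brings the later pair to log2 differences of -0.89 and 0.87, under the 2-fold limit. Its haematopoietic relative *Hcls1* was measured at 138 to 226 FPKM and was thus the more abundant of the pair in every library.

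*Sh3pxd2a*, which encodes the scaffold TKS5, was at 5.94, 5.59, 2.58 and 3.98 FPKM and was lowest with IL-3 in fl/fl cells, 2.16-fold below RANKL alone in FPKM. Its paralog *Sh3pxd2b*, which encodes TKS4, stood at 26.6, 16.4, 49.4 and 17.6 FPKM and was highest in that same library. The pair of scaffolds was therefore ordered oppositely by the addition of IL-3. *Dnm2*, which encodes the membrane-severing GTPase dynamin 2, was at 60.4, 40.2, 71.1 and 44.2 FPKM. It was 1.77-fold higher with IL-3 and 1.61-fold lower in cKO cells, so that the libraries with high *Dnm2* were those with high *Actg1*.

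In the adhesion ring *Zyx*, the gene of zyxin, a LIM protein recruited to actin at tensed adhesions, had the largest range of the members after *Src* and *Fblim1* on the log2(FPKM + 1) scale. It stood at 61.0, 19.4, 104 and 30.4 FPKM, highest in the IL-3 library. That library was 5.36 times the RANKL library, a smaller ratio than the 5.72-fold span of *Myo10*, and the cKO library was 3.42-fold below it. The counting intervals of the 4 libraries did not overlap, the nearest being 18.5 to 20.3 FPKM with RANKL and 29.3 to 31.5 FPKM in the cKO library. *Zyx* lies on chromosome 6 from 42349630 to 42360213 (plus strand), and 4 transcripts were summed for it.

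*Pxn*, which encodes the scaffold paxillin, was at 37.5, 54.5, 30.8 and 44.7 FPKM, 1.77-fold lower when IL-3 was added. It was high in the RANKL and cKO libraries, in which *Zyx* was low. The integrin activators *Tln1* (talin 1, 123 to 145 FPKM) and *Fermt3* (kindlin-3, 126 to 166 FPKM), the scaffold kinase *Ilk* (66.6 to 82.3 FPKM) and the talin partner *Vcl* (vinculin, 10.3 to 13.4 FPKM) all kept within 1.5-fold in each comparison. *Tln2* was not above 0.144 FPKM.

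*Fblim1*, which encodes migfilin, a LIM protein that links filamins to adhesions, had a course of its own. It was at 13.1, 15.6 and 12.0 FPKM in the fl/fl libraries and at 1.31 FPKM in the cKO library (149 estimated fragments, interval 1.11 to 1.54). The fl/fl libraries were all within 1.5-fold of each other, and the cKO library was 9.13-fold below its fl/fl counterpart. It was the single member whose cKO level stood at least 2-fold below every fl/fl library, and no member stood at least 2-fold above them all. Over all genes 8 were that far below and 14 that far above, and *Fblim1* ranked 3 among the 8 by distance, after *Stat5a* and *Stat5b* themselves. Both of its transcripts were lower in the cKO library, the main one at 11.9, 14.8, 11.5 and 1.31 FPKM. The gene lies on chromosome 4 from 141576062 to 141606096 (minus strand). The cKO library differs from the other 3 in mouse as well as in genotype, and these cannot be told apart.

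Of the unconventional myosins, *Myo10*, whose product carries integrins along filopodia, stood at 5.29, 23.3, 4.08 and 14.2 FPKM. It was 4.41-fold higher with RANKL, 5.72-fold lower with IL-3 added, and 3.49-fold higher in cKO cells than in fl/fl cells. The M-CSF and IL-3 libraries were therefore both low, as for *Src*. *Myo1e*, a class I myosin of the podosome membrane, was at 32.1, 66.8, 47.9 and 53.5 FPKM. It was 2.08-fold higher with RANKL but under 1.5-fold apart in the other comparisons, and did not reach 2-fold once libraries were scaled to the median gene or to a common upper quartile. *Myo1f* was at 134, 97.6, 138 and 92.9 FPKM, highest in the IL-3 library and lowest in the cKO library, and the related *Myo1g* was at 36.8 to 65.1 FPKM. *Myo9b*, a myosin that inactivates RhoA, ranged from 24.9 to 29.3 FPKM.

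RANKL against M-CSF and cKO against fl/fl are the comparisons with no library in common, so that their differences can be set side by side. Across the 39 genes, which are not independent replicates, Pearson's r was 0.66 and Spearman's rank correlation 0.73, and across all 10764 genes tested they were 0.66 and 0.71. These comparisons were thus related to each other among the members about as closely as among genes at large. In level the members did not follow those genes. Their median was -0.13 against 0.14 for all genes with RANKL, and -0.08 against 0.13 in the cKO comparison. Without *Src*, *Zyx* and *Fblim1*, left out after their values were seen, the correlations were 0.85 and 0.78 over 36 genes. *Fblim1* was the member farthest from that relation, with 0.24 for RANKL and -2.49 for cKO. Points share their libraries, depth and scaling, and no p-value is given.

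**Figure D4:**
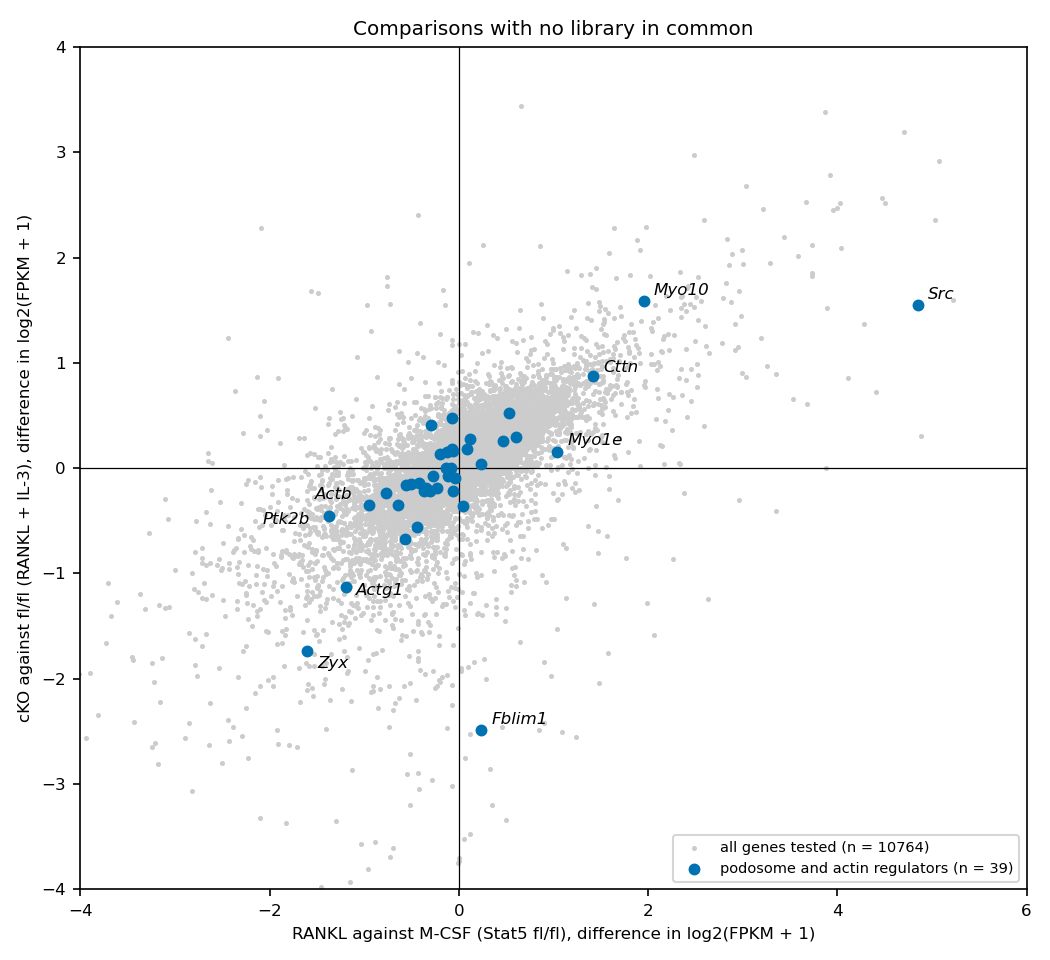
Difference in log2(FPKM + 1) for RANKL against M-CSF (horizontal axis) and for the cKO library against the IL-3 library (vertical axis), with the 39 members in blue over 10764 genes in grey, of which 19 lie outside the axes. Members lie along the grey cloud from *Zyx* and *Actg1* to *Myo10* and *Src*, and *Fblim1* lies below it at -2.49.

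The wider machinery was read from 8 lists of other integrin, scaffold, nucleation, formin, turnover, myosin, GTPase regulator and kinase genes, of which 149 genes were tested. With RANKL 13 (8.72%) were at least 2-fold higher and 19 (12.8%) lower, beside 5.43% and 6.87% of all genes. With IL-3 added 18 (12.1%) were higher and 10 (6.71%) lower, beside 6.11% and 3.47%. In cKO cells 6 (4.03%) were higher and 13 (8.72%) lower, beside 2.12% and 4.28%. These shares are a description of the lists. Their medians were -0.11, 0.13 and -0.11, close to those of the members. The formins, which build unbranched filaments, had 0 of 9 genes 2-fold apart in any comparison.

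The genes nearest to *Src* in course came from several of the lists. *Scin*, which encodes the capping and severing protein adseverin, was at 0.378, 34.9, 1.47 and 21.7 FPKM. *Dock5*, an exchange factor for Rac known from osteoclast sealing zones, was at 4.68, 31.2, 7.32 and 24.7 FPKM. *Itgav*, the alpha chain of the vitronectin receptor, was at 27.3, 68.3, 9.31 and 35.7 FPKM. All of these were highest with RANKL alone. By contrast *Itgb3*, the beta chain that pairs with it in osteoclasts, was listed at 0.400 to 1.38 FPKM. *Tns3*, which encodes the adhesion adaptor tensin 3, also had its highest level in the RANKL library, at 35.1, 97.2, 27.6 and 63.9 FPKM.

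Genes with the opposite order, as in *Zyx* and *Actg1*, were found in the same lists. *Rhob*, *Rhoc* and *Def6* were at 30.1, 40.1 and 6.42 FPKM with RANKL and at 154, 126 and 27.0 FPKM with IL-3 added. *Evl*, a relative of the zyxin-binding protein VASP, was at 35.4, 10.9, 36.6 and 14.9 FPKM. *Marcks*, which binds actin at the membrane, was at 19.9, 5.08, 20.2 and 7.32 FPKM. *Coro1a*, a coronin of leukocytes, was at 391, 110, 292 and 170 FPKM. In each of these genes the fl/fl library with IL-3 was nearer to that of M-CSF alone than to that of RANKL alone. *Itgam*, which encodes CD11b, was above both in the IL-3 library, at 220, 103, 351 and 141 FPKM, and *Itgax*, the CD11c gene, stood at 7.78, 10.2, 99.7 and 9.95 FPKM.

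**Figure D5:**
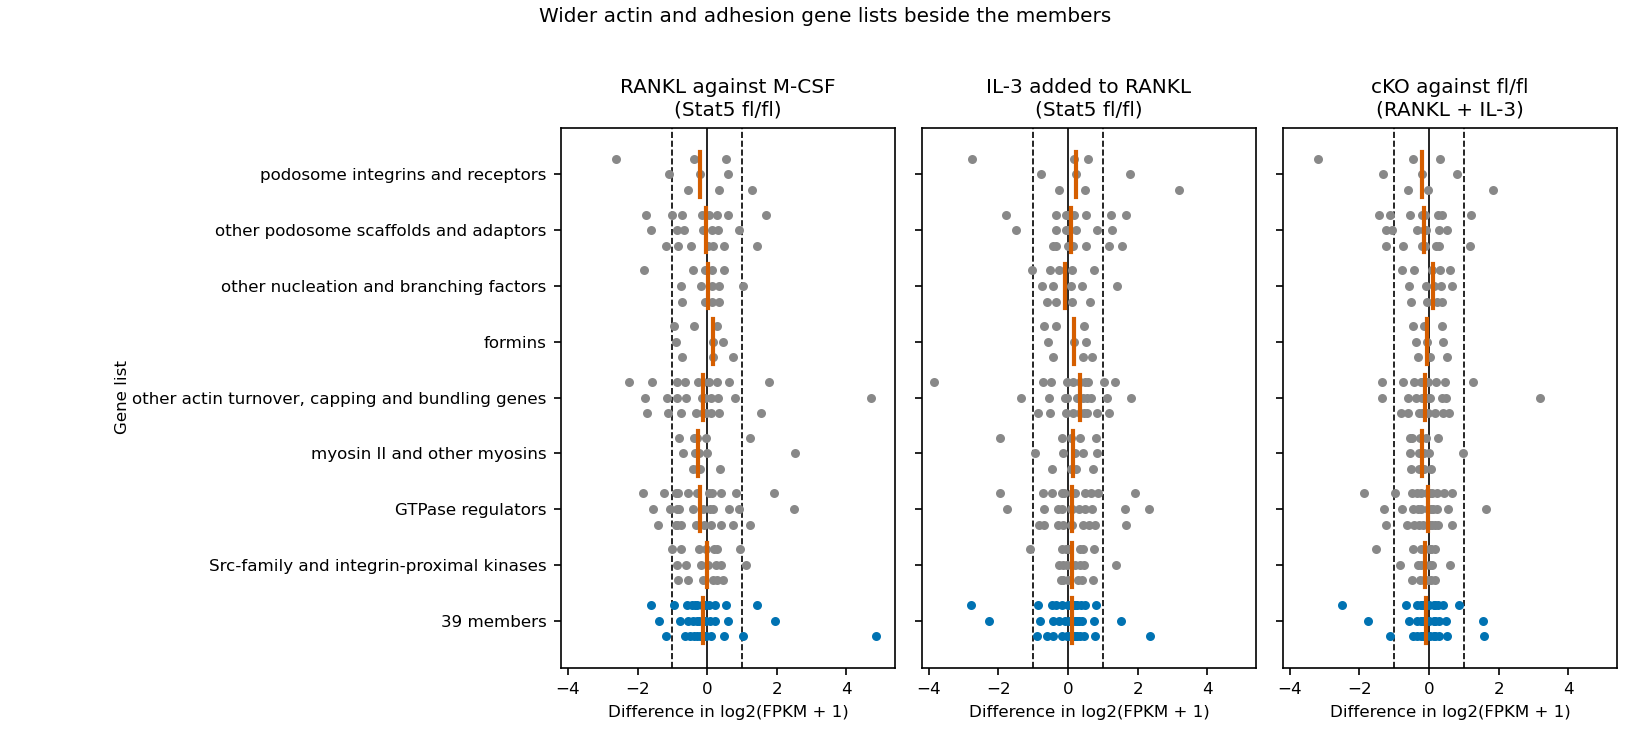
Difference in log2(FPKM + 1) (horizontal axis) of each gene tested in the 8 wider lists (grey points) and of the 39 members (blue points) in the 3 comparisons, with the median of each list as a vertical bar and 2-fold as dashed lines. Medians lie near 0 in every row, while single genes such as *Scin* at 4.70 with RANKL reach as far as *Src*.

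Marker genes of other cells moved with these comparisons. Summed over 9 macrophage markers the level was 2888, 1285, 2140 and 1423 FPKM, which is the order of *Actg1* except that M-CSF was highest. Most of that sum was *Cd68* and *Csf1r*, and not every marker had its order. *Cx3cr1* was lowest in the IL-3 library, at 68.0, 15.1, 3.26 and 19.7 FPKM, and *Cd68* was lowest in the cKO library. Over 9 dendritic cell markers the sum was 226, 151, 682 and 164 FPKM, with 5 of 6 tested genes 2-fold or more above the RANKL library in the IL-3 library. Most of that sum was *Cd74*, at 130, 83.4, 434 and 94.9 FPKM. The untested markers *Flt3*, *Zbtb46* and *Ccr7* did not exceed 0.597 FPKM in any library. Over 7 matched neutrophil markers the sum was 1285, 733, 1077 and 766 FPKM. Osteoclast markers summed to 45.9, 1277, 141 and 518 FPKM, in the order seen for *Src*. *Itgb3*, also on that list, did not have this order and was highest with M-CSF, at 1.38, 0.818, 1.13 and 0.400 FPKM. The part of the marker genes in the values of the members was not tested. In bulk RNA fewer cells of a type and less RNA per cell cannot be told apart. Fibroblast and stromal markers summed to 4.47 to 6.64 FPKM, of which *Dcn* with RANKL was the highest single value at 3.71, and lymphocyte markers to 0.272 to 1.40 FPKM with *Cd3e* and *Cd3g* listed at 0, so that both were near the floor, and megakaryocyte and platelet markers summed to 16.8, 6.71, 128 and 8.26 FPKM, mostly *Ppbp*.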

How the data were processed

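RNA of 4 BMM cultures was measured in a TruSeq RNA library each on a HiSeq2000 system. Per the labels and methods, TopHat2 2.0.13 was used for alignment (build mm10) and Cufflinks 2.2.1 for the FPKM of each RefSeq transcript, and the authors deposited 1 table of 33170 transcripts. Its unit is not named and was read as FPKM from the tools and values, and the options used are not given. FPKM depends on how Cufflinks divides fragments among transcripts and near-identical genes, and small RNA genes (45 reached the minimum) were left out.

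Transcripts were summed per gene, and differences were taken on log2(FPKM + 1), which understates low genes, for the 10764 genes that reached 1 FPKM in any library. Calls were at least 2-fold or 1.5-fold (0.585 on the log2 scale) apart, with no test, since each condition has 1 library. Depth was estimated from the steps of FPKM times length in single-transcript genes of at least 3000 nt. At the depth chosen, 70.8% to 73.2% of low values came within 0.2 of a whole step. Depth was fitted to these same values, so the shares are no separate check of it. Poisson intervals at 95% follow from that depth and cover counting error only. Positions of the members come from GENCODE M21 on GRCm38 and promoters from RefSeq. RefSeq also gave the positions of the genes lowest in the cKO library and the windows around *Fblim1*.

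The members, the 8 wider lists and the 7 marker lists (225 of 227 entries matched, 5 by gene ID) were chosen with earlier results of these data known. Values in every library are given for members at least 1.5-fold apart in any comparison, for wider genes by a rule of up to 4 per list at least 2-fold apart with at least 5 FPKM, of which the text gives part and some are not reported here, and for paralogs of members. *Itgb3* and the marker genes named singly, and the genes near *Fblim1*, were chosen after their values were seen. Alternatives were scaling by the median ratio or the upper quartile, a pseudocount of 0.1 FPKM, a minimum of 5 FPKM or none, the most abundant transcript, and 4-fold calls. The 2-fold calls were tried on simulated libraries with planted changes of 4-fold or more in genes of at least 5 FPKM. Only counting noise was simulated, so smaller changes and variation between cultures were not covered. The tools were scipy 1.17.1, pandas 2.3.3 and numpy 2.4.6 in Python 3.11.15, with figures by matplotlib 3.10.9.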

Additional observations from a re-analysis of the deposited data

How the results depend on the processing

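With a minimum of 5 FPKM, no minimum, scaling to a common upper quartile or the most abundant transcript per gene, all 15 counts and medians of the members kept within 1.5 times, or within 0.1 on the log2 scale, of their values. With a pseudocount of 0.1 FPKM, 4 members instead of 2 were at least 2-fold lower with IL-3, *Cttn* and *Sh3pxd2a* being added, and the other 14 kept within the same limits. Scaling to a median log2 ratio of 0 took out shifts of 0.14, -0.15 and 0.13 and moved the members' medians to -0.27, 0.27 and -0.21 in the RANKL, IL-3 and cKO comparisons, and 10 instead of 6 members were then at least 1.5-fold lower with RANKL. At 4-fold, 1 member was higher and 0 were lower with RANKL. With IL-3 added 1 was higher and 2 lower, and in cKO cells 0 were higher and 1 was lower. Shares of all genes were not taken at 4-fold or with the pseudocount of 0.1 FPKM. Those counts therefore show only how the calls depend on the setting. None of the named members changed sign at 1.5-fold or more under these alternatives. No paired analysis was possible because each condition has 1 library, all with replicate number 1. Depth leaves counting intervals of a few percent for most members and wide ones for *Fscn1* and for *Src* with M-CSF. Intervals were also wider where other members had few fragments, as for *Fblim1* in the cKO library and *Cttn* with M-CSF (1.67 to 2.23 FPKM). Variation between cultures and mice is not measured.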

Other observations

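Transcript estimates within members were mostly stable. *Ptk2b* was an exception, as its 3863 nt transcript made up 9.84% of the gene with M-CSF, 24.5% with RANKL, 15.4% with IL-3 added and 12.5% in the cKO library, while in FPKM that transcript stood at 6.54, 6.13, 6.73 and 3.94. The lower *Ptk2b* level with RANKL was therefore found in the main transcript, at 59.6 against 18.8 FPKM. For *Wipf1* the 2039 nt transcript made up 19.2%, 23.2%, 11.5% and 26.0%. These shares rest on the authors' estimates and have no replicate.

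The 8 genes with a cKO level at least 2-fold below every fl/fl library lie on 3 chromosomes, *Stat5a* and *Stat5b* on chromosome 11, *Glul*, *Marco* and *Chst10* on chromosome 1, and *Fblim1*, *Padi4* and *Plod1* on chromosome 4. On chromosome 4, *Padi4* (140745508 to 140774239, GRCm38) was at 10.8, 4.67, 5.61 and 1.016 FPKM and *Plod1* (147909753 to 147936776) at 76.5, 47.9, 39.9 and 18.7 FPKM. Within 1 Mb on each side of *Fblim1*, 21 other genes were tested, of which 1 was at least 2-fold lower and 1 higher in the cKO library than in the IL-3 library, and their median difference was 0.26. Within 5 Mb, 6 of 56 were lower and 2 higher, and within 10 Mb, 9 of 182 were lower and 3 higher. Of all genes tested, 4.28% were lower and 2.12% higher. *Cdc42*, the nearest other member on that chromosome, differed by -0.14. This set was looked at after its values were seen, and the reason for the shared positions was not tested.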
